A study of Homo sapiens with 5 samples.

Results

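The 39 HOX genes were the protein-coding genes of the GENCODE annotation of hg19 whose symbol is HOXA, HOXB, HOXC or HOXD followed by a number, out of 20163 protein-coding genes. They lie in 4 clusters: HOXA at chr7:27132612-27239710 with 11 genes, HOXB at chr17:46605888-46806112 with 10, HOXC at chr12:54332615-54449814 with 9 and HOXD at chr2:176957449-177055635 with 9. Sites bound by SF-1 (steroidogenic factor-1, a nuclear receptor encoded by NR5A1) had been mapped by chromatin immunoprecipitation and sequencing in H295R/TR SF-1 cells. This line was derived from H295R, an established human adrenocortical tumor line, and makes additional SF-1 in response to doxycycline. Cells were kept without doxycycline (basal SF-1) or with it for 3 days (overexpressed SF-1), and each chromatin was precipitated with 2 anti-SF-1 antibodies, called Millipore and Perseus after their labels. For each of the 4 combinations the authors made 1 list of peaks, for which the labels name 3 libraries, with input DNA (2 libraries) as control. The basal Millipore list held 4393 peaks, the overexpressed Millipore list 11910, the basal Perseus list 6616 and the overexpressed Perseus list 7453. A peak was assigned to a cluster when its centre lay in it or within 50 kb of its ends, which gave 35 peaks in all. With 1 list per condition there is no replicate error, read depth is unknown, and the 95% intervals below cover counting error over peaks only. The depth of a list cannot be told apart from its dosage or antibody. The lists hold no expression values, so neither the cell type nor the SF-1 level could be checked in them.

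HOX genes encode homeodomain transcription factors that set position along the body axis, and within each cluster they lie in the order in which they are used from head (low numbers) to tail (high numbers). HOX proteins bind DNA together with homeodomain cofactors of the TALE class. In the adrenal lineage, HOX proteins act on the fetal adrenal enhancer of the gene that encodes SF-1. SF-1 itself binds DNA as a monomer at a nuclear receptor half-site extended at its 5' side. That sequence was searched as 8 words of 9 letters (CCAAGGCCA, CCAAGGCCG, CCAAGGTCA, CCAAGGTCG, TCAAGGCCA, TCAAGGCCG, TCAAGGTCA and TCAAGGTCG) on either strand without mismatch, and is called the SF-1 consensus here.

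Of the 35 peaks 11 held the SF-1 consensus, at 8 positions. They are shown because they are the places in the HOX clusters where the letters that SF-1 binds lie under a peak. Each line gives the 9 letters in capitals with 10 bases to each side, 5' to 3' on the strand that carries the match, read from the GRCh37 (hg19) reference sequence. HOXC12 upstream (chr12:54345088-54345096, minus strand, overexpressed Millipore), HOXD3 upstream (chr2:176999832-176999840, plus strand, basal Millipore and overexpressed Perseus), HOXA9 with HOXA10-AS (chr7:27208836-27208844, minus strand, basal Perseus), HOXA10 (chr7:27212863-27212871, plus strand, overexpressed Millipore and basal Perseus), the outermost start of HOXA9 (chr7:27214767-27214775, plus strand, overexpressed Perseus), the HOXA13 3' UTR (chr7:27236049-27236057 and chr7:27236077-27236085, plus strand) and the flank of the HOXA cluster beside EVX1 (chr7:27277893-27277901, minus strand, overexpressed Millipore) read as follows.
HOXC12 upstream: gcggcccagtTCAAGGTCActgtctagtt
HOXD3 upstream: tcaaaaacatCCAAGGTCAtcagaacttt
HOXA9 with HOXA10-AS: tttgggccatTCAAGGTCAggggcgcccg
HOXA10: gcagcttgggCCAAGGCCGgccggctgct
HOXA9 outermost start: actcccactcCCAAGGCCAgagccagatc
HOXA13 3' UTR, first: ctgtcaaaagTCAAGGTCAcaaattgtct
HOXA13 3' UTR, second: ttttttttcgTCAAGGTCAaggtttaagg
EVX1 flank: agtctcccttCCAAGGCCAtgtccctccc

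Whole peaks are shown for 4 sites found in more than 1 list, outside any UTR. At HOXD3 both lists gave the same bounds, chr2:176999801-176999999. At HOXC4 the overexpressed Perseus peak chr12:54414051-54414199 is printed, which lay wholly inside the overexpressed Millipore peak. At HOXA9 the basal Perseus peak chr7:27208751-27208999 is printed, whose consensus reads as its reverse complement here, and at HOXA11-AS the overexpressed Perseus peak chr7:27228751-27229049. All are on the plus strand of GRCh37. Capitals mark the SF-1 consensus, or at HOXA11-AS the one stretch with 1 mismatch to it, and the HOXC4 peak has neither.
HOXD3: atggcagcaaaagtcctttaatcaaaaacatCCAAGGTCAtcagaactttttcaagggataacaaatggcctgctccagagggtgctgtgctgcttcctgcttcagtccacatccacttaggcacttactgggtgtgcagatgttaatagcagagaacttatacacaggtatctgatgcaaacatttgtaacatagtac
HOXC4: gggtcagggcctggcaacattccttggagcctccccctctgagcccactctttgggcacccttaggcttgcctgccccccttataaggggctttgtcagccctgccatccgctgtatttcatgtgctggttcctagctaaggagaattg
HOXA9 with HOXA10-AS: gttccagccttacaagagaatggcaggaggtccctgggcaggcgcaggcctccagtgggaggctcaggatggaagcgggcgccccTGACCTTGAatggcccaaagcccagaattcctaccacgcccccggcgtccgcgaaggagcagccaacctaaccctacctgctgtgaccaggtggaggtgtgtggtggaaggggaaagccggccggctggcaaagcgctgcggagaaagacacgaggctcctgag
HOXA11-AS: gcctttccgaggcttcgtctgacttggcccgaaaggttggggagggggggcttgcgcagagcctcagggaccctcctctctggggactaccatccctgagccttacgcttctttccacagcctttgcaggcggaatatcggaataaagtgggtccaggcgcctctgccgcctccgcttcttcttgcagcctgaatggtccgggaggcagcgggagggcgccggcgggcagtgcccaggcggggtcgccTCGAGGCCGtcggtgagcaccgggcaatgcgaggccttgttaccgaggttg

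The overexpressed lists held more peaks at the HOX clusters than the basal lists with either antibody, and the HOXA cluster held 17 of the 35 peaks. With the Millipore antibody the clusters held 4 peaks at basal dosage (Poisson interval 1.09 to 10.2) and 13 at overexpressed dosage (6.92 to 22.2). With the Perseus antibody they held 6 (2.20 to 13.1) and 12 (6.20 to 21.0). The ratio of overexpressed to basal peaks was 3.25 for Millipore (exact interval 1.00 to 13.7) beside 2.71 for the whole lists, and 2.0 for Perseus (0.695 to 6.49) beside 1.13. Both intervals include the ratio of the whole lists, so a change at the HOX clusters beyond that of the lists was not detectable with these counts. When every list was shortened to its 4393 best-ranked peaks, the clusters held 6 peaks in each overexpressed list, and the ratios came to 1.5 and 1.2.

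By cluster, HOXA went from 1 to 8 peaks with Millipore and from 3 to 5 with Perseus. HOXB went from 1 to 3 and from 0 to 3. HOXC went from 1 to 2 with Millipore and from 3 to 2 with Perseus, and HOXD from 1 to 0 and from 0 to 2. No interval was computed for a change with a count of 0. Among the other changes only the HOXA increase with Millipore, a ratio of 8.0, had an interval above 1 (1.07 to 355). That interval again included the ratio of the whole lists.

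Per length, peaks were denser at the HOX clusters than over the genome in all 4 lists. The clusters and their flanks cover 922.7 kb. They held 4.34 peaks per Mb in the basal Millipore list (1.18 to 11.1) beside 1.54 over the genome, 14.1 (7.502 to 24.1) beside 4.17 in the overexpressed Millipore list, 6.50 (2.39 to 14.2) beside 2.31 in the basal Perseus list and 13.01 (6.72 to 22.7) beside 2.61 in the overexpressed Perseus list. The genome's density lay below the interval in both overexpressed lists and inside it in the basal Millipore list. In the basal Perseus list it lay just below, but with peaks within 500 bp merged the list had 5 HOX peaks, 5.42 per Mb (1.76 to 12.6), and the genome's density of 2.23 lay inside. The HOXA cluster stood at 38.6 peaks per Mb in the overexpressed Millipore list (16.7 to 76.1) and at 24.1 in the overexpressed Perseus list (7.84 to 56.3), 9.27 and 9.26 times the genome. For HOXB the same lists gave 2.40 and 3.83 times the genome, with intervals that included it. In the basal Perseus list HOXA and HOXC stood at 6.26 and 5.97 times the genome, each with 3 peaks. Their intervals, 2.99 to 42.3 and 2.85 to 40.4 per Mb, lay above it, and the HOXA peaks include the pair at HOXA10. HOXB and HOXD held no peak of that list, and HOXD none of the overexpressed Millipore list. The clusters are also rich in genes and in GC (49.2% for HOXA, 48.5% for HOXB, 49.0% for HOXC and 46.9% for HOXD, with flanks), and the part of either in the density was not tested.

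**Figure D1:**
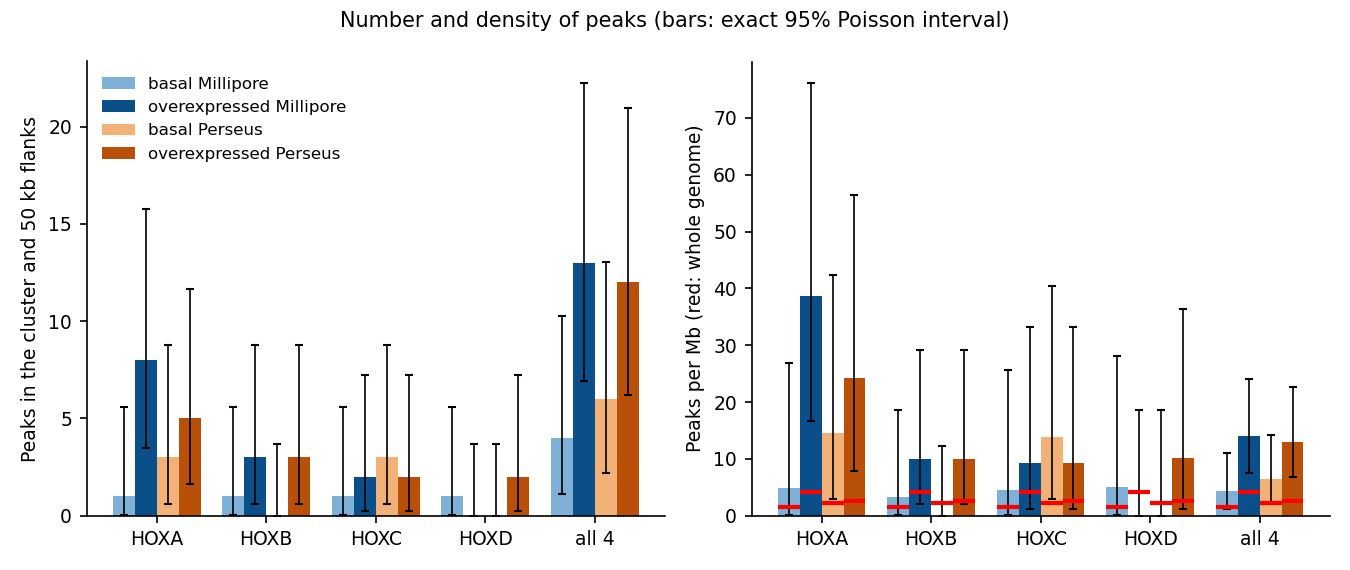
Number of SF-1 peaks (left) and peaks per Mb (right) in each HOX cluster with its 50 kb flanks and in all 4 clusters, for the 4 lists. Error bars are exact 95% Poisson intervals and red lines the density of each list over the genome; HOXA in the overexpressed Millipore list, with 8 peaks, is the highest bar of any single cluster.

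Peaks of the 4 lists that overlapped were joined into sites, and the 35 peaks formed 24 sites. HOXA had 9 sites, HOXB 7, HOXC 6 and HOXD 2. Of these 18 were found in 1 list, 2 in 2 lists, 4 in 3 lists and none in 4. Between the outermost gene ends lay 31 peaks, and 4 lay in the flanks. Of the peak centres 13 fell in a protein-coding gene outside coding sequence and UTRs. Another 10 fell in a noncoding gene only, 4 in coding sequence, 4 in a UTR and 4 outside genes. Among the 13 were peaks at HOXA9 centred in an exon of that gene, so not all of them lay in introns.

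The sites shared by the most lists lay at HOXA9, HOXA10, HOXA13 and HOXC4, and each was found in both overexpressed lists and in 1 basal list. HOXA9, HOXA10 and HOXA13 pattern the limbs, the urogenital tract and other posterior structures, and HOXA9 also maintains blood stem cells. At HOXA13 the peak lay in the 3' UTR, 3610 to 3685 bp downstream of the start. Its rank was 3608 in the basal Millipore list (chr7:27236051-27236149), 921 in the overexpressed Millipore list (chr7:27235901-27236199) and 3885 in the overexpressed Perseus list (chr7:27235901-27236149). A rank of 1 is the best peak of a list, and ranks of different lists are not on one scale. The site had the 2 copies of TCAAGGTCA printed above, whose starts are 28 bp apart. Both copies lay in the overexpressed peaks, and the narrower basal peak held the second.

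At HOXA10, 3 of the 4 peaks had their centre in coding sequence and 1 in an intron. The overexpressed Millipore peak chr7:27212651-27213299 was 649 bp wide and ranked 560, the best HOX peak of its list. The overexpressed Perseus peak chr7:27212901-27213249 ranked 1728. The basal Perseus list had a pair of peaks there, chr7:27212701-27212899 at rank 5217 and chr7:27213051-27213249 at rank 4220, and the basal Millipore list had none. The centres lay 218 to 568 bp upstream of the nearest HOXA10 transcript start, and the consensus CCAAGGCCG fell in the overexpressed Millipore peak and in the first of the basal Perseus pair. GC content of the 4 peaks ran from 62.3 to 79.4%.

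At HOXA9 the peaks fell inside the gene and in an exon of the antisense RNA HOXA10-AS, 258 to 308 bp from the start of MIR196B, the gene of a microRNA that represses HOX mRNAs. They ranked 2767 in the basal Perseus list (chr7:27208751-27208999), 7911 in the overexpressed Millipore list (chr7:27208851-27208999) and 5742 in the overexpressed Perseus list (chr7:27208851-27208949). The basal peak was the widest and held TCAAGGTCA, which neither overexpressed peak reached.

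At HOXC4, a gene of anterior to middle body regions, the peaks lay in an intron, 3285 to 3410 bp downstream of the start, in an exon of the noncoding RNA ENSG00000260597. They ranked 1257 in the basal Millipore list (chr12:54413851-54414149), 695 in the overexpressed Millipore list (chr12:54413951-54414199) and 5751 in the overexpressed Perseus list (chr12:54414051-54414199). None held the consensus, and the GC content was 54.6 to 57.7%.

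Sites in 2 lists lay at HOXD3 and HOXA11-AS. The HOXD3 site, 1440 bp upstream of the start and inside an intron of HOXD-AS2, had equal bounds in the basal Millipore list (rank 992) and the overexpressed Perseus list (rank 2626), with the consensus CCAAGGTCA and a GC content of 42.7%. It was the only HOXD site in more than 1 list. The site at HOXA11-AS, the antisense RNA of HOXA11 (a gene of the limb, kidney and uterus), lay about 4 kb upstream of HOXA11. It ranked 164 in the overexpressed Perseus list (chr7:27228751-27229049), the best HOX peak of that list, and 4946 in the overexpressed Millipore list (chr7:27228851-27229149). Neither basal list had a peak there.

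**Figure D2:**
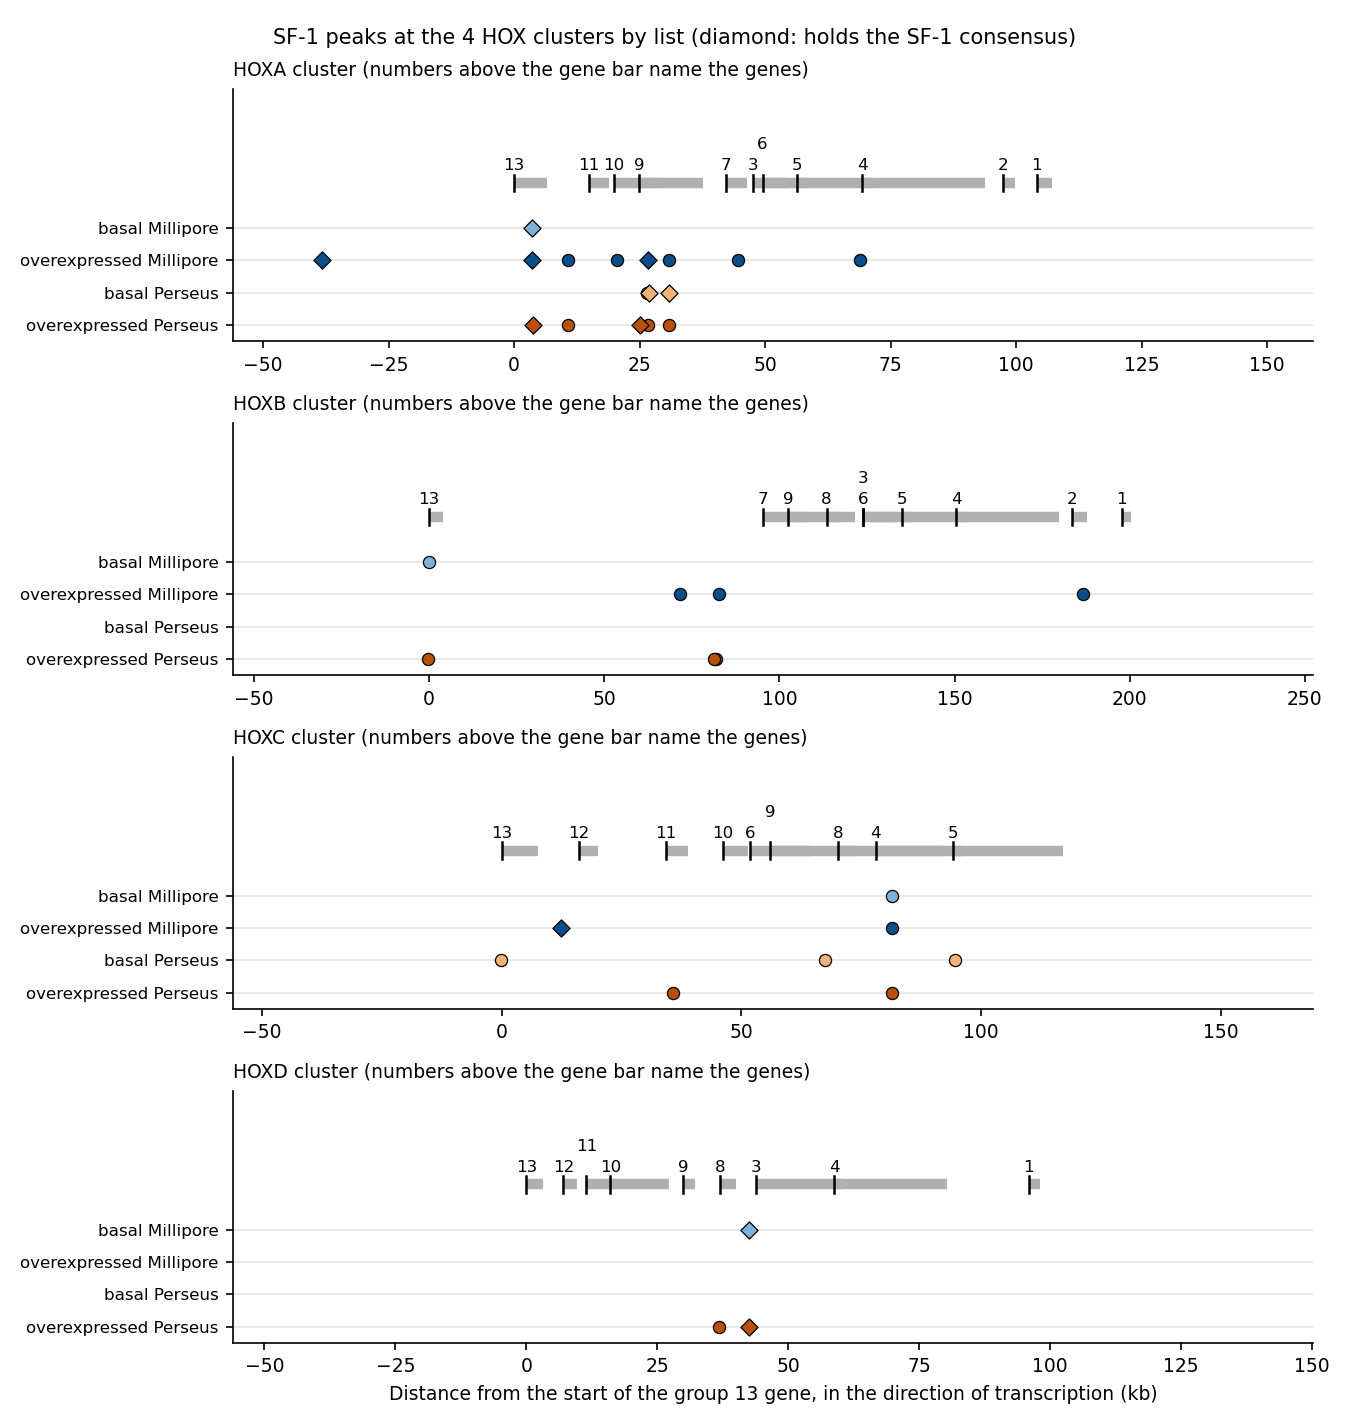
Position of each SF-1 peak along the 4 clusters, as distance in kb from the start of the group 13 gene in the direction of transcription, with 1 row per list. Grey bars are HOX genes with their numbers at the start sites, circles are peaks and diamonds peaks with the SF-1 consensus. In HOXA 14 of 17 peaks lie between the outer ends of HOXA9 and HOXA13, with a shared site counted in each of its lists. In HOXB no peak of the basal Perseus list is seen.

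Within HOXA the peaks gathered at the end with the high numbers. The stretch from HOXA9 to HOXA13, chr7:27202057-27239710, is 37.7 kb of the 207.1 kb searched and held 14 of the 17 HOXA peaks. A site found in several lists is counted here in each of them, so the 14 peaks are fewer separate places. Counted as sites, 3 of the 9 in HOXA lay outside the stretch, and the gathering was not tested. By list the peaks inside were 1 of 1 in basal Millipore, 5 of 8 in overexpressed Millipore, 3 of 3 in basal Perseus and 5 of 5 in overexpressed Perseus. The 3 others were overexpressed Millipore peaks: 326 bp upstream of HOXA4 (chr7:27170601-27170849, rank 2656), in HOXA7 2530 bp downstream of its start (chr7:27194951-27195099, rank 2156), and 4394 bp upstream of EVX1, a homeobox gene that borders the cluster (chr7:27277801-27278049, rank 9396). Over all clusters, 9 of the 16 genes of paralog groups 9 to 13 and 10 of the 23 of groups 1 to 8 had a peak of some list within 10 kb of the start (56.3 and 43.5%, beside 35.2% of all protein-coding genes). Inside the stretch, 2 further sites were each found in 1 overexpressed list. The Perseus peak chr7:27214601-27214799 (rank 5930) lay 99 bp downstream of the outermost start of HOXA9, which is inside HOXA10, and held CCAAGGCCA. The Millipore peak chr7:27219201-27219399 (rank 5106) lay in the 5' UTR of HOXA10, 580 bp downstream of its outermost start.

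In HOXB no site was found in more than 1 list. HOXB13, a gene of the hindmost body and the prostate, had a basal Millipore peak 63 bp upstream of its start (chr17:46806101-46806249, rank 772, the best HOX peak of that list) and an overexpressed Perseus peak 213 bp upstream (chr17:46806251-46806399, rank 5609). They lie side by side without sharing a base, their centres are 150 bp apart, and neither held the consensus. HOXB2, a gene of the hindbrain, had an overexpressed Millipore peak 2921 bp downstream of its outermost start (chr17:46619351-46619749, rank 5690). The other 4 HOXB peaks lay between HOXB13 and HOXB7 in the noncoding genes LINC03057 and LINC02086, all from overexpressed lists: Millipore at ranks 3914 and 4597 and Perseus at ranks 3394 and 5189. The best-ranked of each antibody were chr17:46734401-46734499 (Millipore) and chr17:46724651-46724849 (Perseus). No other HOXB gene had a peak within 10 kb. The nearest basal Perseus peak to any HOXB gene was 172788 bp from its start.

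HOXC held peaks of every list, at 6 sites. The best-ranked HOX peak of the basal Perseus list, rank 128, covered the start of HOXC13, a gene of hair and nails (chr12:54332351-54332799, centre 40 bp upstream, GC 63.0%). The overexpressed Perseus list had no peak there. The basal Perseus list also had peaks 2719 bp upstream of HOXC8 (chr12:54399951-54400149, rank 1239) and in coding sequence of HOXC5 (chr12:54427201-54427299, rank 4320, 416 bp downstream of the start). The overexpressed Perseus peak chr12:54368351-54368499 (rank 3326) lay 315 bp from the start of HOTAIR, the noncoding RNA transcribed against the HOXC genes, and 1515 bp downstream of the start of HOXC11. The overexpressed Millipore peak 3712 bp upstream of HOXC12 (chr12:54344851-54345099, rank 4443) held TCAAGGTCA. In HOXD the one further peak was from the overexpressed Perseus list, 72 bp upstream of HOXD8 (chr2:176994251-176994449, rank 4802, GC 73.9%). The nearest overexpressed Millipore peak to any HOXD gene was 80804 bp from its start.

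Few HOX genes had a peak near the outermost start, and in no list could their share be told apart from that of all protein-coding genes. Within 1 kb of the outermost start, the basal Millipore list had a peak at 1 of 39 HOX genes (2.56%, HOXB13) beside 1.02% of all protein-coding genes. The overexpressed Millipore list had 2 (5.13%, HOXA4 and HOXA10) beside 8.19%, the basal Perseus list 2 (5.13%, HOXC5 and HOXC13) beside 9.56%, and the overexpressed Perseus list 3 (7.69%, HOXA9, HOXB13 and HOXD8) beside 10.5%. HOXB13 was the single gene with a peak in more than 1 list (2.56% of HOX genes beside 7.14% of all protein-coding genes). In at least 1 list 7 of the 39 had a peak (17.9% beside 19.8%), and 32 had none. By list, the share was above the background in basal Millipore, with 1 gene, and below it in the others. With 39 genes the Wilson intervals of the lists (0.454 to 13.2%, 1.42 to 16.9%, 1.42 to 16.9% and 2.65 to 20.3%) all included the background.

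Within 10 kb the shares were higher. The basal Millipore list had peaks at 5 genes (12.8%, HOXA13, HOXB13, HOXC4, HOXD3 and HOXD8) beside 4.38% of all protein-coding genes. The overexpressed Millipore list had 11 (28.2%) beside 19.0%, namely HOXA3, HOXA4, HOXA6, HOXA7, HOXA9, HOXA10, HOXA11, HOXA13, HOXB2, HOXC4 and HOXC12. The basal Perseus list had 5 (12.8%, HOXA9, HOXA10, HOXC5, HOXC8 and HOXC13) beside 15.5%, and the overexpressed Perseus list 10 (25.6%) beside 17.1%, namely HOXA9, HOXA10, HOXA11, HOXA13, HOXB13, HOXC4, HOXC11, HOXD3, HOXD8 and HOXD9. The background lay below the Wilson interval for basal Millipore (5.60 to 26.7%) and inside it for the other lists. HOX genes lie close together, and 1 peak can count for several of them, as the peak in HOXA7 did for HOXA3, HOXA6 and HOXA7. Both overexpressed lists had a peak within 10 kb of HOXA9, HOXA10, HOXA11, HOXA13 and HOXC4 (12.8% beside 7.46%), and no HOX gene had one in both basal lists (0 of 39 beside 1.87%). In at least 1 list 19 of the 39 genes had a peak within 10 kb (48.7% beside 35.2% of all protein-coding genes), and for the other 20 no list placed one there. Their nearest peaks were 10424 bp (HOXC10) to 53496 bp (HOXD1) away.

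The counts depended on which start was used. From the start of any annotated transcript, the lists in the order above had a peak within 1 kb at 2, 6, 4 and 5 HOX genes (5.13, 15.4, 10.3 and 12.8%) beside 2.23, 12.8, 12.2 and 13.6% of all protein-coding genes. Within 10 kb there were 6, 12, 8 and 11 (15.4, 30.8, 20.5 and 28.2%) beside 7.87, 26.3, 19.4 and 21.6%. The genes added within 1 kb were HOXA13 in 3 lists, HOXA7, HOXA9 and HOXB2 in overexpressed Millipore, HOXA9 and HOXA10 in basal Perseus and HOXA10 in overexpressed Perseus.

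**Figure D3:**
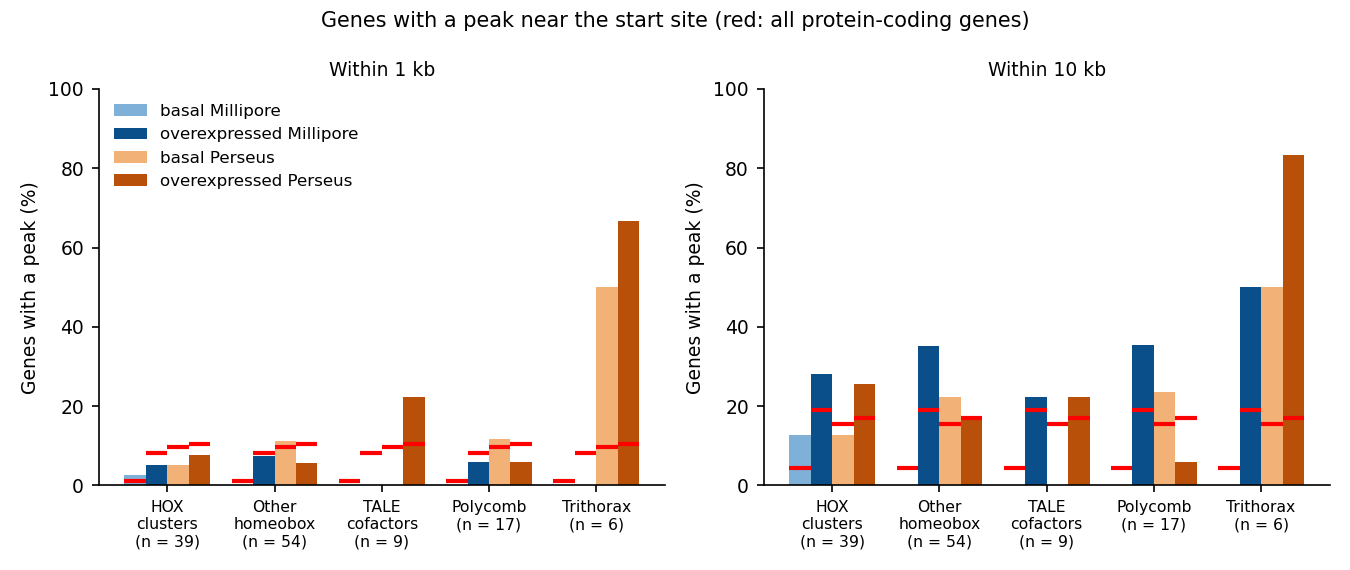
Percentage of genes with a peak centre within 1 kb (left) or 10 kb (right) of the outermost start, for HOX genes and 4 other gene lists in the 4 peak lists. Red lines are the percentage of all protein-coding genes; HOX bars within 1 kb are at 2.56 to 7.69%, and within 10 kb at 12.8 to 28.2%.

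Sharing between lists was higher at the HOX clusters than over the lists in some pairs, with wide intervals. Of the 4 basal Millipore peaks 2 overlapped an overexpressed Millipore peak (50%, Wilson interval 15.0 to 85.0%) beside 12.4% of the whole list, and of the 13 overexpressed Millipore peaks 2 overlapped a basal one (15.4%, 4.33 to 42.2%) beside 4.53%. Of the 6 basal Perseus peaks 2 overlapped an overexpressed Perseus peak (33.3%, 9.68 to 70.0%) beside 29.5%, and in return 2 of 12 did (16.7%, 4.70 to 44.8%) beside 26.2%. Between antibodies at overexpressed dosage 5 of 13 Millipore peaks were shared (38.5%, 17.7 to 64.5%) beside 11.5%, and 5 of 12 Perseus peaks (41.7%, 19.3 to 68.0%) beside 18.5%. The background lay below the interval for both directions between the overexpressed lists and for basal Millipore peaks found in overexpressed Millipore, and inside it for the other pairs with shared peaks. HOX peaks were wider than their lists in the median, and the part of width in the sharing was not tested. The 5 shared between antibodies were the sites at HOXA9, HOXA10, HOXA11-AS, HOXA13 and HOXC4. At basal dosage the antibodies shared none: 0 of 4 Millipore peaks beside 11.6%, which allows a share of up to 75%, and 0 of 6 Perseus peaks beside 7.65%, which allows up to 50%.

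The SF-1 consensus was found in 2 of 4 basal Millipore peaks (50%, Wilson interval 15.0 to 85.0%), beside 16.0% of the whole list. It was in 4 of 13 overexpressed Millipore peaks (30.8%, 12.7 to 57.6%) beside 10.9%, in 2 of 6 basal Perseus peaks (33.3%, 9.68 to 70.0%) beside 21.6% and in 3 of 12 overexpressed Perseus peaks (25.0%, 8.89 to 53.2%) beside 17.2%. The background lay below the interval in the overexpressed Millipore list and inside it in the others. HOX peaks were wider than their lists in the median (given below), so more bases were searched per peak. The part of width in these shares was not tested. The consensus for NRSF/REST, a repressor of neuronal genes that the study examined beside SF-1, and a CTCF-type sequence were in none of the 35 peaks. Both were also rare in the whole lists. In the order above, NRSF/REST was in 1.12, 0.739, 0.181 and 0.268% of peaks and the CTCF-type sequence in 0.182, 0.353, 0.423 and 0.537%. None in 35 peaks therefore does not set the HOX peaks apart. By list, none in 4, 13, 6 and 12 peaks allows shares of up to 75%, 23.1%, 50% and 25% (up to 3 counts). The paper reports, from sequence enrichment analysis, that the NRSF/REST sequence was enriched in SF-1 sites at both dosages and with a different anti-SF-1 antibody. The shares here count matches to a consensus with up to 4 mismatches. They are another measure and do not bear on that enrichment.

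The median HOX peak was richer in GC and in CpG than the median of its list in all 4 lists. Median GC content was 47.9% in basal Millipore beside 45.6% for the whole list, 59.1% beside 55.6% in overexpressed Millipore, 65.5% beside 51.0% in basal Perseus and 63.5% beside 54.8% in overexpressed Perseus. The ratio of observed to expected CpG had medians of 0.318, 0.432, 0.758 and 0.606 beside 0.168, 0.233, 0.349 and 0.347. Peaks at HOXA13, HOXD3 and the EVX1 flank were the low end, at 39.4 to 47.0% GC, with shared sites counted in each list. All of these held the consensus, but the next lowest, the overexpressed Perseus peak at HOXB13 (48.3%), did not. The other peaks with the consensus had 59.3 to 69.2% GC. HOX peaks were also wider, with medians of 174, 249, 199 and 199 bp beside 149 bp in every list. In rank, 3 of 4 basal Millipore and 11 of 13 overexpressed Millipore peaks were in the better-ranked 50% of their list, against 3 of 6 basal Perseus and 5 of 12 overexpressed Perseus peaks.

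**Figure D4:**
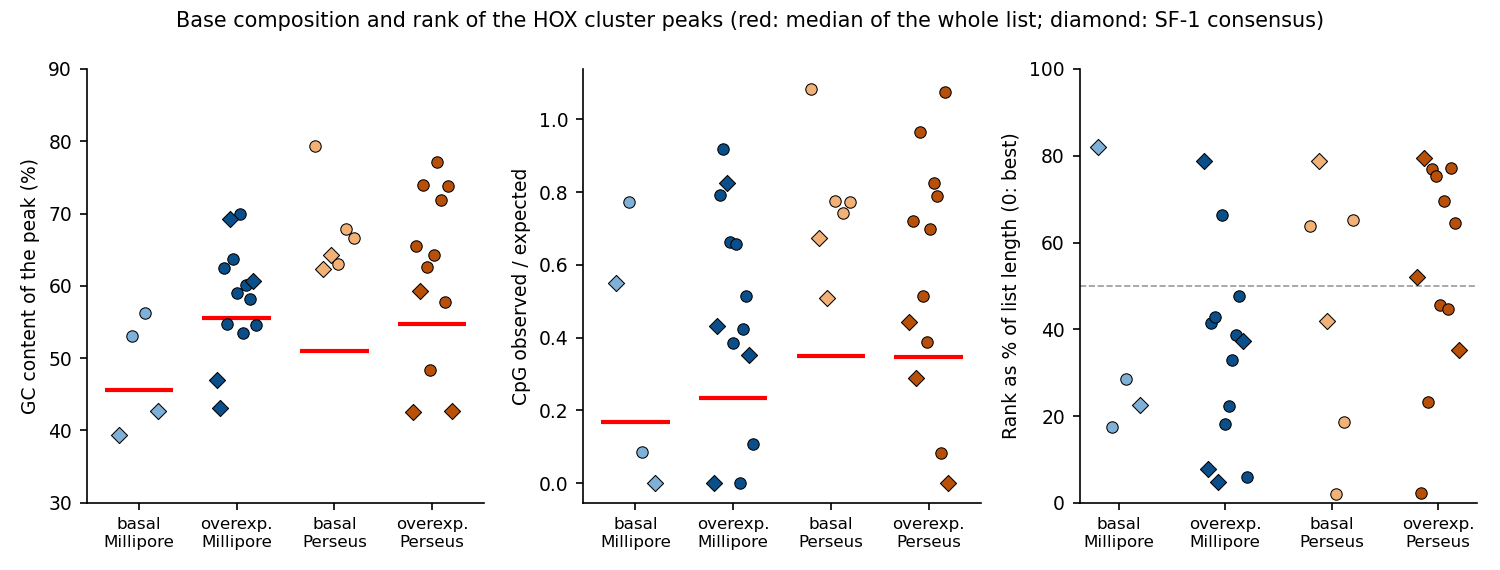
GC content in percent (left), ratio of observed to expected CpG (middle) and rank as a percentage of list length, where 0 is best (right), for each HOX cluster peak by list. Red lines are medians of the whole lists and diamonds peaks with the SF-1 consensus; the basal Perseus peaks all lie above the list's GC median of 51.0%.

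Other genes tied to the HOX system were counted the same way, with the same background. Of 6 Trithorax genes, which keep HOX genes active, the lists had a peak within 1 kb at 0, 0, 3 and 4 (0, 0, 50 and 66.7%, beside 1.02, 8.19, 9.56 and 10.5%). Within 10 kb they had one at 0, 3, 3 and 5 (0, 50, 50 and 83.3%, beside 4.38, 19.0, 15.5 and 17.1%). The nearest centres were 63 bp from WDR5, 136 bp from ASH2L, 196 bp from KMT2A and 307 bp from RBBP5. KMT2A is the histone methyltransferase whose fusions drive HOXA9 expression in leukemia. Of 17 Polycomb genes, which keep HOX genes silent, the lists had a peak within 1 kb at 0, 1, 2 and 1 (0, 5.88, 11.8 and 5.88%, beside 1.02, 8.19, 9.56 and 10.5%). Within 10 kb they had one at 0, 6, 4 and 1 (0, 35.3, 23.5 and 5.88%, beside 4.38, 19.0, 15.5 and 17.1%). The Wilson interval of the 35.3% in the overexpressed Millipore list (17.3 to 58.7%) included its background. The nearest were at EZH2 (87 bp), SUZ12 (224 bp), JARID2 (300 bp) and PHC3 (537 bp). Of 9 TALE cofactors the overexpressed Perseus list had a peak within 1 kb at 2 (22.2% beside 10.5%), MEIS2 (25 bp) and PKNOX1 (830 bp), and the other lists at none. Within 10 kb the overexpressed Millipore list had one at 2 others (22.2% beside 19.0%), MEIS3 (2034 bp) and PKNOX2 (9292 bp), and the basal lists at none. The Wilson interval of either 22.2% (6.32 to 54.7%) included its background. Of the 6 ParaHox genes, the sister group of the HOX genes, none had a peak within 10 kb, and the nearest was 13459 bp from CDX1. Of all protein-coding genes 35.2% had one in at least 1 list. Of 54 homeobox genes outside the clusters the lists had a peak within 1 kb at 0, 4, 6 and 3 (0, 7.41, 11.1 and 5.56%, beside 1.02, 8.19, 9.56 and 10.5%). Within 10 kb they had one at 0, 19, 12 and 9 (0, 35.2, 22.2 and 16.7%). For the 39 HOX genes these were 5, 11, 5 and 10 (12.8, 28.2, 12.8 and 25.6%), and the background was 4.38, 19.0, 15.5 and 17.1%. For the 54 other homeobox genes within 10 kb, the background lay below the Wilson interval in overexpressed Millipore (23.8 to 48.5%). It lay inside in the other lists. The nearest of the homeobox genes outside the clusters were at DLX5 (12 bp), EMX1 (36 bp), SIX5 (140 bp) and IRX6 (165 bp).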

How the data were processed

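SF-1 chromatin immunoprecipitation was done in H295R/TR SF-1 cells at basal and overexpressed dosage with the Millipore and Perseus antibodies. According to their methods, the authors mapped reads to hg19 with ELAND and called peaks with SeqPeak of CisGenome v2, with input as control. Per the labels each list comes from 3 libraries, and how these were combined is not given in the sources used here. The submitters' notes also name CASAVA 1.6. The deposited column of score values is 1000 for every peak and was not used as a measurement, and the other deposited score column is a rank that begins at 1. What was ranked is not given in the sources used here, starts fall on a grid of 50 bp, and read depth is unknown. The input has no peak list and was not analysed here.

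Peaks were placed on GRCh37 (hg19) and annotated with GENCODE version 44 lifted to that build. Distances were taken between a gene's outermost start and the centre of a peak. An overlap of 1 bp or more made peaks of different lists shared. Peak numbers have exact Poisson intervals, ratios exact conditional binomial intervals and shares Wilson intervals, all at 95%. No p-value was computed, as each condition has 1 list. The NRSF/REST consensus allowed 4 mismatches. For sharing between lists and for the NRSF/REST and CTCF-type sequences, a count of 0 was instead taken to allow up to 3 counts. That limit is wider than the Wilson limit.

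The HOX genes, the other gene lists and the sequences searched were chosen with earlier results of these data known. By rule, peaks described in full were those shared between lists, those within 1 kb of a HOX start, those with the consensus and the best-ranked of each cluster in each list; at most 4 genes with the nearest peaks were named from each other list. Alternatives changed the flank, the rank limit, list length, merging, the start used, the overlap and the form of the consensus. The counting was tested on simulated data. Scripts ran in Python 3.11.15 with scipy 1.17.1 for intervals, pysam 0.24.0 for sequence, pandas 2.3.3 and numpy 2.4.6 for tables, and matplotlib 3.10.9.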

Additional observations from a re-analysis of the deposited data

Results flagged for a closer look

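In HOXC and HOXD the number of peaks moved in opposite directions with the 2 antibodies between basal and overexpressed SF-1. In HOXC the difference was 1 with Millipore (1 peak to 2) and -1 with Perseus (3 peaks to 2). In HOXD it was -1 with Millipore (1 peak to 0) and 2 with Perseus (0 peaks to 2). The intervals of the HOXC ratios, 0.104 to 118 for Millipore and 0.0557 to 5.82 for Perseus, both included 1. Each number comes from 1 list, and the difference between antibodies was not tested.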

How the results depend on the processing

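Of 92 recomputed values 65 stayed within 1.5 times the reported one, among them every value with flanks of 0 or 100 kb, with any base of a peak in the cluster, with peaks within 500 bp merged, with an overlap of 50% of the shorter peak and with centres within 500 bp. With all lists at 4393 peaks, the overexpressed lists each had 6 cluster peaks, the overexpressed to basal ratios were 1.5 for Millipore and 1.2 for Perseus, genes with a peak within 1 kb numbered 1 in overexpressed Millipore and 0 in overexpressed Perseus, shared peaks of the 2 Perseus lists numbered 1 in either direction, and those of the 2 overexpressed lists 2 in either direction. With the better-ranked 50% of each list, cluster peaks numbered 3 in basal Perseus and 5 in overexpressed Perseus, genes within 1 kb 1 and 0, and genes within 10 kb 3 and 6. From any transcript start, genes within 1 kb numbered 2, 6, 4 and 5 (basal Millipore, overexpressed Millipore, basal Perseus, overexpressed Perseus), and within 10 kb 8 in basal Perseus. With TCAAGGTCA alone, 1, 2, 1 and 1 peaks matched (25, 15.4, 16.7 and 8.33%, beside 5.92, 2.22, 7.09 and 4.95% of the whole lists). With 1 mismatch allowed, 3, 9, 2 and 6 peaks did (75, 69.2, 33.3 and 50%, beside 34.6, 42.2, 44.7 and 46.8%). Fewer peaks, more starts or another word set changed these counts by construction.

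No paired analysis was possible because each condition is 1 list made from several libraries, and leaving out a library was not possible either. The cluster counts are small, at 4 to 13 peaks a list. Read depth is unknown and cannot be told apart from dosage or antibody.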
